A study of Danio rerio with 6 samples.

Results

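The alpha and beta crystallins, the gamma N and gamma S crystallins and the structural proteins of lens fibre cells were followed in whole zebrafish (Danio rerio) embryos that carry a mutation of rhpn2. The 32 gene symbols were chosen for their known place in the lens, with earlier results of these data known. Of these symbols, 31 matched a row of the deposited table, out of 31624 genes in all. The remaining symbol, bfsp1, matched no row. RNA was sequenced from 3 samples of rhpn2 mutants and 3 samples of wild type embryos, lettered a to c in each group. All were collected 72 hours post fertilization, when the lens already holds fibre cells. The labels call the mutants knockouts, and they leave unsaid how the allele was made, its zygosity, the strain and how many embryos went into a sample. The labels name no separate clutches or parents, so the p-values reflect only how far these samples spread, and that spread may be technical.

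The lens is made of elongated fibre cells that lose their organelles and pack their cytoplasm with crystallins. Alpha crystallins belong to the small heat shock proteins and act as chaperones, while beta and gamma crystallins share a compact fold and give the lens its refractive power. Fibre cells are further held in order by water channels and adhesion proteins of the membrane, mip and lim2, and by a lens-specific cytoskeleton of beaded filaments. In fish, a large family of gamma M crystallins adds to these.

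Libraries held 15013932 to 17056923 counts in mutants and 14918069 to 15258723 counts in wild type. edgeR's quasi-likelihood test was run on 20032 genes. A gene was called at an adjusted p below 0.05 (Benjamini-Hochberg over all genes tested). Of these genes, 33.2% were called, 16.7% lower and 16.5% higher in mutants. Levels are given as FPKM, the count divided by exon length in kilobases and scaled to the library total. Log2 changes, and the percentages of the wild type level taken from them, are on the TMM scale, which sets the middle of the expression changes near 0. With plain library totals, on which FPKM rests, all genes tested had a median log2 change of 0.113 in place of 0.00598, and 65.0% of called genes were higher in place of 49.7%. The targeted gene rhpn2 (ENSDARG00000014577) had 2.73, 2.83 and 2.99 FPKM in mutants a to c, against 10.8, 12.1 and 11.6 FPKM in wild type a to c. Its log2 change was -2.12 (SE 0.10, adjusted p 5.04e-08). On log2(FPKM + 1), the two-sided exact permutation p was 0.1, the lowest possible with 3 samples in each group.

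Lens fibre genes were lower in the mutants as a group. Of the 31 rows, 24 had enough counts to be tested. Of these, 22 were called lower and none higher, against 16.7% and 16.5% of all genes tested, and 2 did not pass. All 24 fitted changes were negative, from -1.42 to -0.27 on the log2 scale, with a median of -0.79, whereas the median over all genes tested was 0.00598. The 7 rows that were not tested were cryaba, cryabb, crybb2, crygs1, crygs2, crygs3 and crygs4, all at a mean below 1 FPKM in both groups. Of the tested genes, crybb3 passed the count filter through the wild type libraries alone, so its lower level in mutants is not independent of that filter. Without it 21 of 23 were called lower. Whole embryos were sequenced, so fewer lens cells and less lens RNA per cell cannot be told apart. No row of these genes lies on chromosome 7, where rhpn2 is.

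Together the 31 genes took 0.689%, 0.551% and 0.637% of all counts in mutants a to c, against 1.06%, 1.01% and 0.969% in wild type a to c. Every mutant sample was below every wild type sample. The summed level was 5218 ± 589 FPKM in mutants and 8420 ± 412 FPKM in wild type (SD, n = 3 each), so mutants kept 62.0% of the wild type sum. Beta crystallins made up most of it.

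**Figure D1:**
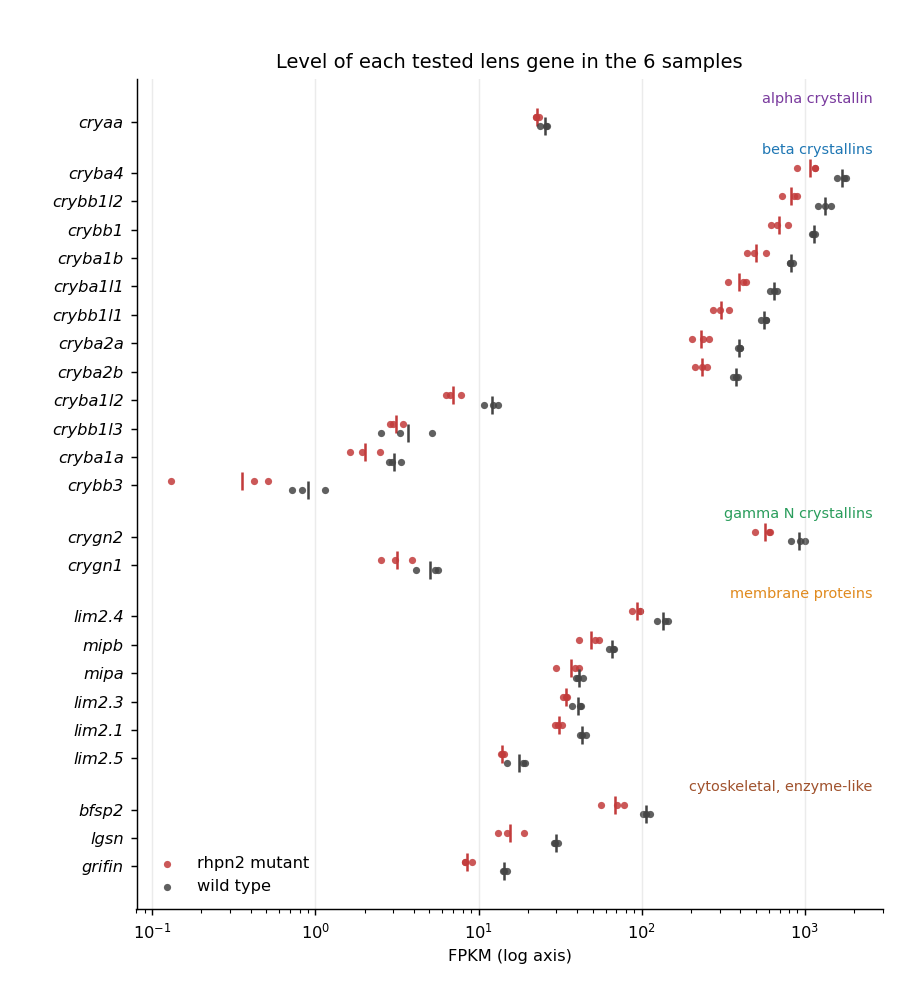
FPKM of the 24 tested lens genes on a log axis, with points for single samples and vertical ticks for group means, rhpn2 mutants above wild type within each gene. Levels ran from below 1 FPKM for crybb3 to a mean of 1068 FPKM in mutants and 1698 FPKM in wild type for cryba4, and the mutant means lay to the left of the wild type means for all 24 genes.

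The order of the genes by level was nearly the same in both groups. Ranked by mean FPKM, 17 of the 24 tested genes held the same rank in mutants and wild type, and no gene moved by more than 2 ranks. Mean levels spanned 0.353 to 1068 FPKM in mutants and 0.900 to 1698 FPKM in wild type, far more than any change between groups. Near-equal ranks therefore say little about the change of each gene. In both groups cryba4 stood first, followed by crybb1l2, crybb1, crygn2, cryba1b, cryba1l1 and crybb1l1. The neighbours cryba2a and cryba2b changed places between the groups. Their means of 232 ± 27.7 and 233 ± 19.7 FPKM in mutants differed by less than their SD, whereas in wild type they were 396 ± 7.97 and 378 ± 14.1 FPKM (n = 3 each).

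Beta crystallins are the major structural proteins of the lens, in an acidic branch (cryba genes) and a basic branch (crybb genes). Of 13 beta crystallin genes 12 were tested, 11 were called lower (against 16.7% of all genes tested) and crybb1l3 did not pass. The 11 include crybb3, which passed the count filter through wild type alone. The summed level of the beta crystallins was 4270 ± 512 FPKM in mutants and 6973 ± 310 FPKM in wild type (SD, n = 3 each). The 3 most abundant and the one with the smallest adjusted p are given sample by sample.

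The acidic cryba4 (ENSDARG00000024548, chromosome 10, 44195430 to 44204668, plus strand) had 1156, 897 and 1151 FPKM in mutants a to c, against 1779, 1736 and 1577 FPKM in wild type a to c. On the TMM scale mutants stood at 58.2% of wild type, with a 95% interval of 49.2% to 68.9%. The log2 change was -0.78 (SE 0.12, adjusted p 0.000482 by edgeR). The groups lay apart, with mutant b lowest. Its neighbour crybb1 (ENSDARG00000068507, chromosome 10, 44174427 to 44180594, minus strand), a basic beta crystallin transcribed away from cryba4, had 792, 619 and 673 FPKM in mutants, against 1161, 1113 and 1118 FPKM in wild type. Its log2 change was -0.81 (SE 0.11, adjusted p 0.000153).

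The basic crybb1l2 (ENSDARG00000016793, chromosome 1, 43738358 to 43745614, plus strand) had 898, 719 and 861 FPKM in mutants a to c, against 1437, 1324 and 1209 FPKM in wild type a to c. It fell by 0.79 on the log2 scale (SE 0.12, adjusted p 0.000459 by edgeR), and again no mutant sample reached a wild type sample. The gene crybb1l1 (ENSDARG00000007576, chromosome 14, 47316814 to 47323257, minus strand) had 342, 272 and 302 FPKM in mutants, against 576, 540 and 576 FPKM in wild type. With a log2 change of -0.996 (SE 0.11, adjusted p 3.08e-05), it had the smallest adjusted p of the beta crystallins and the largest fall of those with a mean of at least 1 FPKM, to 50.2% of wild type.

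The next beta crystallins fell to a similar extent. Mutant levels were 54.2% of wild type for cryba2a, 56.7% for cryba1b, 57.0% for cryba1l1, 57.1% for cryba2b and 53.6% for cryba1l2, with adjusted p from 7.05e-05 to 0.000261 by edgeR. The first 4 averaged 232 to 502 FPKM in mutants and 378 to 820 FPKM in wild type, while cryba1l2 averaged 6.96 ± 0.769 FPKM in mutants and 12.0 ± 1.21 FPKM in wild type (SD, n = 3 each). For each of these genes the highest mutant sample lay below the lowest wild type sample. The same was true of 22 of the 24 tested lens genes, where 17.3% of all genes tested had every mutant sample below every wild type sample in FPKM. Among these 22 was crybb3, which passed the count filter through wild type alone.

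Low-level beta crystallins gave less certain values. The gene cryba1a averaged 2.01 ± 0.427 FPKM in mutants and 3.03 ± 0.289 FPKM in wild type (SD, n = 3 each) and was called lower (log2 change -0.70, adjusted p 0.0291 by edgeR). Leaving out mutant b, mutant c, wild type a or wild type b ended the call (adjusted p 0.11, 0.0791, 0.0788 and 0.052). For crybb3 the counts were 9, 7 and 2 in mutants a to c, against 18, 11 and 13 in wild type a to c. Its log2 change of -1.42 (SE 0.47, adjusted p 0.0339) was lost as a call without mutant b or c or wild type a or c (adjusted p 0.0713, 0.117, 0.105 and 0.053). The untested crybb2 had 7, 4 and 2 counts in mutants, against 20, 6 and 15 counts in wild type. These groups overlap, since wild type b had fewer counts than mutant a. With no filter on low counts crybb2 had an adjusted p of 0.0206 (log2 change -1.84).

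The exception among the beta crystallins, crybb1l3, had 2.86, 3.45 and 2.99 FPKM in mutants a to c, against 5.19, 2.54 and 3.29 FPKM in wild type a to c. The groups overlapped, with wild type a highest and wild type b lowest of all 6 samples. Its log2 change was -0.36 (SE 0.26, adjusted p 0.311 by edgeR), and without wild type a it was 0.005. The 95% interval of its mutant level ran from 54.5% to 111% of wild type.

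Beta crystallin genes often lie beside each other, an acidic and a basic copy on opposite strands. The spans of crybb1l1 and cryba1l1 overlap on chromosome 14, those of crybb1l2 and cryba1l2 on chromosome 1 and those of crybb1l3 and cryba1a on chromosome 15. Spans run from gene start to gene end, and overlap of exons was not examined. No source used here states that counting used strand, so whether reads of neighbours were mixed is not known. Any mixing would bear most on cryba1l2, with 187 to 262 counts in mutants and 321 to 391 counts in wild type. Its neighbour crybb1l2 had 15108 to 19647 counts in mutants and 23660 to 28021 counts in wild type. Within the 4 neighbouring pairs the log2 changes were -0.78 and -0.81 for cryba4 and crybb1, -0.81 and -0.996 for cryba1l1 and crybb1l1, -0.90 and -0.79 for cryba1l2 and crybb1l2, and -0.70 and -0.36 for cryba1a and crybb1l3. Overlaps with further genes in the table touch crybb1 (si:ch211-122a17.5), mipb (si:ch211-147f12.7), cryba1a (unc119a), cryba2a (tmem198b), cryabb (c5h11orf1) and crygs2 (lcmt2) on the opposite strand and lim2.5 (vsig10l) on the same strand. The genes crygs3 and crygs4 overlap each other and, on the opposite strand, crygm5 and crygm3.

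**Figure D2:**
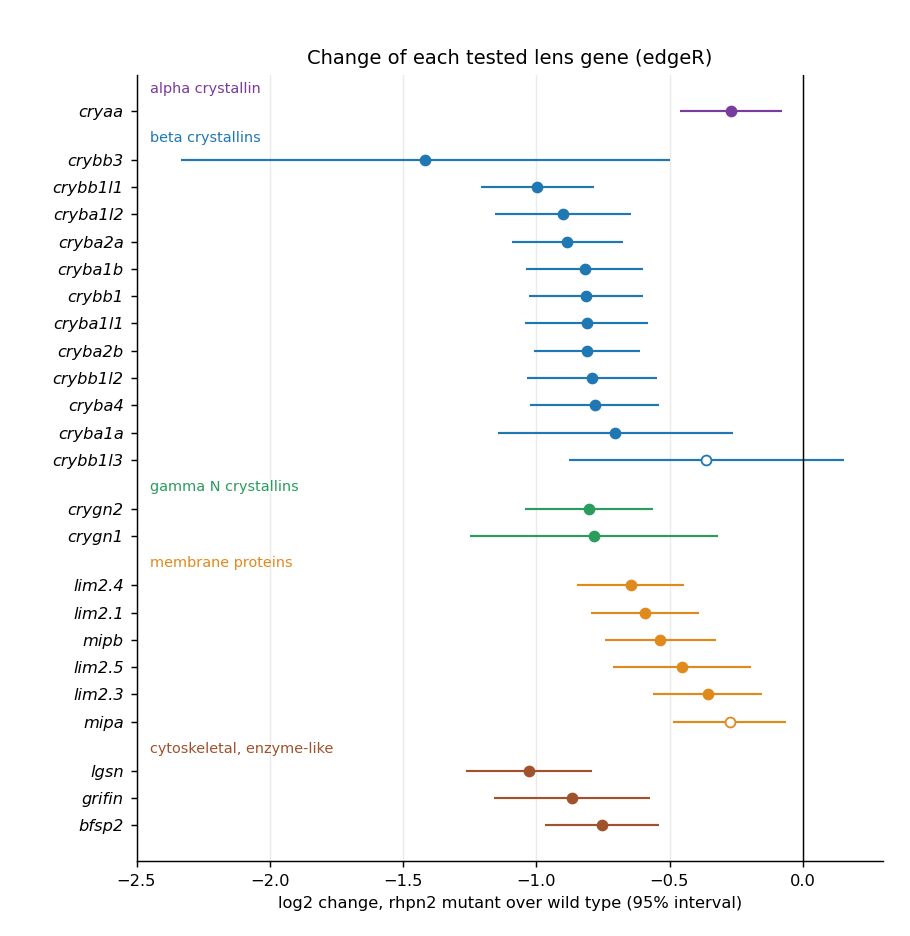
Log2 change of each tested lens gene, rhpn2 mutant over wild type, with its 95% interval from the SE of edgeR. Filled points passed an adjusted p below 0.05 and open points, crybb1l3 and mipa, did not. Beta and gamma N crystallins, lgsn, grifin and bfsp2 sit between -0.70 and -1.42 apart from crybb1l3, and cryaa, mip and lim2 genes sit between -0.27 and -0.65.

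Gamma N crystallins stand between the beta and gamma branches in sequence, and crygn2 is abundant in the young fish lens. The gene crygn2 (ENSDARG00000030411, chromosome 24, 41441956 to 41449024, minus strand) had 605, 498 and 609 FPKM in mutants a to c, against 998, 939 and 825 FPKM in wild type a to c. Mutants stood at 57.3% of wild type, with a 95% interval of 48.5% to 67.7% (log2 change -0.80, SE 0.12, adjusted p 0.000373 by edgeR). Its sister crygn1 was far less abundant, with 2.54, 3.08 and 3.90 FPKM in mutants, against 5.40, 4.16 and 5.61 FPKM in wild type. It fell by 0.78 on the log2 scale (SE 0.24, adjusted p 0.0228), a call lost without mutant a or b or wild type a or c (adjusted p 0.0954, 0.0675, 0.053 and 0.0606).

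Gamma S crystallins, which in mammals belong to the growing cortex of the lens, were at or near 0 in both groups. No library held a count of crygs1. The gene crygs2 had 0 counts in every mutant sample, against 1, 1 and 0 counts in wild type a to c. For crygs3 and crygs4 the counts were 1 and 2 in mutant a and 0 in mutants b and c, against 0 to 1 in wild type. A count of 3 in a library corresponds to at most 0.281 FPKM for any of these 4 genes. Where a library held 0 counts, levels up to about that limit remain possible. The limit covers counting error only, since amplified reads without molecular identifiers are not independent molecules.

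Alpha crystallin cryaa, the lens chaperone, was lower by a smaller amount than the beta crystallins. It (ENSDARG00000053502, chromosome 1, 28293049 to 28297091, plus strand) had 23.4, 22.5 and 22.4 FPKM in mutants a to c, against 26.0, 26.4 and 24.0 FPKM in wild type a to c. The groups lay apart by less than 1 FPKM at their nearest samples. Mutants stood at 82.9% of wild type, with a 95% interval of 72.6% to 94.7% (log2 change -0.27, SE 0.10, adjusted p 0.0488 by edgeR). The call was lost under 11 of 14 alternatives (adjusted p 0.0696 to 0.206), among them the fits without mutant a, b or c or wild type a or b (0.117, 0.125, 0.114, 0.0737 and 0.127) and with library totals (0.206). The direction was the same under all 14.

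The alpha B copies were barely present. No library held a count of cryaba, and 3 counts of it correspond to 0.132 to 0.151 FPKM. The gene cryabb, which in zebrafish is expressed widely outside the lens, had 6, 9 and 7 counts in mutants a to c, against 3, 14 and 11 counts in wild type a to c, and these groups overlapped. Thus cryaa supplied nearly all of the summed alpha crystallin level, which was 22.9 ± 0.506 FPKM in mutants and 25.7 ± 1.30 FPKM in wild type (SD, n = 3 each).

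Membrane proteins of the fibre cells were lower by amounts between that of cryaa and those of most beta crystallins. All 6 were tested, 5 were called lower (against 16.7% of all genes tested) and mipa did not pass. Their median log2 change was -0.49. The lim2 genes encode lens intrinsic membrane proteins, which sit at fibre cell junctions. The most abundant of them, lim2.4 (ENSDARG00000015445, chromosome 19, 10622847 to 10635427, minus strand), had 97.1, 86.6 and 97.1 FPKM in mutants a to c, against 144, 139 and 124 FPKM in wild type a to c. Its log2 change was -0.65 (SE 0.10, adjusted p 0.000485 by edgeR), the smallest adjusted p of the group, and the samples of the groups lay apart. For lim2.1 the mutant level was 66.4% of wild type (adjusted p 0.000954). It was 73.0% for lim2.5 (adjusted p 0.0190), lost as a call without mutant a, b or c or wild type b (0.052, 0.065, 0.0526 and 0.0617). It was 78.1% for lim2.3 (adjusted p 0.0201), lost as a call without mutant a or b or wild type b (0.0845, 0.0501 and 0.0641).

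Aquaporin 0, the water channel and adhesion protein of fibre cell membranes, is encoded by mipa and mipb in zebrafish. The gene mipb (ENSDARG00000013963, chromosome 23, 6703639 to 6707251, minus strand) had 54.7, 51.5 and 41.0 FPKM in mutants a to c, against 67.2, 66.9 and 63.3 FPKM in wild type a to c. It fell to 69.0% of wild type (log2 change -0.54, SE 0.11, adjusted p 0.00220 by edgeR). By contrast mipa (ENSDARG00000037285, chromosome 23, 27141684 to 27146233, plus strand) had 41.3, 39.1 and 29.8 FPKM in mutants, against 39.3, 40.8 and 43.5 FPKM in wild type. Mutant a and b lay at or near the wild type samples and mutant c lay below them. The log2 change of mipa was -0.27 (SE 0.11, adjusted p 0.0670), and its mutant level had a 95% interval of 71.4% to 95.7% of wild type. Whether mipa and mipb differ in their change was not tested.

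The cytoskeletal and enzyme-like proteins of fibre cells were all called lower, against 16.7% of all genes tested, with a median log2 change of -0.87. The gene bfsp2 (ENSDARG00000011998, chromosome 2, 32777912 to 32785733, minus strand) encodes phakinin, a subunit of the beaded filament. It had 77.7, 56.5 and 70.4 FPKM in mutants a to c, against 102, 112 and 107 FPKM in wild type a to c, and a log2 change of -0.76 (SE 0.11, adjusted p 0.000251 by edgeR). Lengsin, a relative of glutamine synthetase found in the lens, is encoded by lgsn (ENSDARG00000007715, chromosome 11, 11279828 to 11283261, minus strand). It had 19.1, 13.2 and 14.9 FPKM in mutants, against 30.5, 28.9 and 29.4 FPKM in wild type. At 49.0% of wild type (95% interval 41.6% to 57.7%), it had the largest fall among the tested lens genes with a mean of at least 1 FPKM (log2 change -1.03, SE 0.12, adjusted p 5.57e-05).

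The galectin-related protein of lens fibres, grifin (ENSDARG00000033382, chromosome 3, 41644003 to 41649320, minus strand), had 9.08, 8.27 and 8.21 FPKM in mutants a to c, against 14.8, 14.1 and 14.3 FPKM in wild type a to c. Its log2 change was -0.87 (SE 0.15, adjusted p 0.000851 by edgeR). For all 3 genes every mutant sample lay below every wild type sample, as it did for 17.3% of all genes tested. Filensin, the partner of phakinin in the beaded filament, is encoded by bfsp1. The row ENSDARG00000074919, named CU929052.1 in the deposited table, is paired with BFSP1 in the gene name table used here and is not counted among the 31. It had 38.92, 31.96 and 35.05 FPKM in mutants, against 36.9, 55.4 and 49.0 FPKM in wild type. Its groups overlapped, since wild type a lay below mutant a. The log2 change was -0.52 (SE 0.12, adjusted p 0.00640), and with limma on log2(FPKM + 1) and log2(FPKM + 0.1) the adjusted p was 0.0519 and 0.0556.

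**Figure D3:**
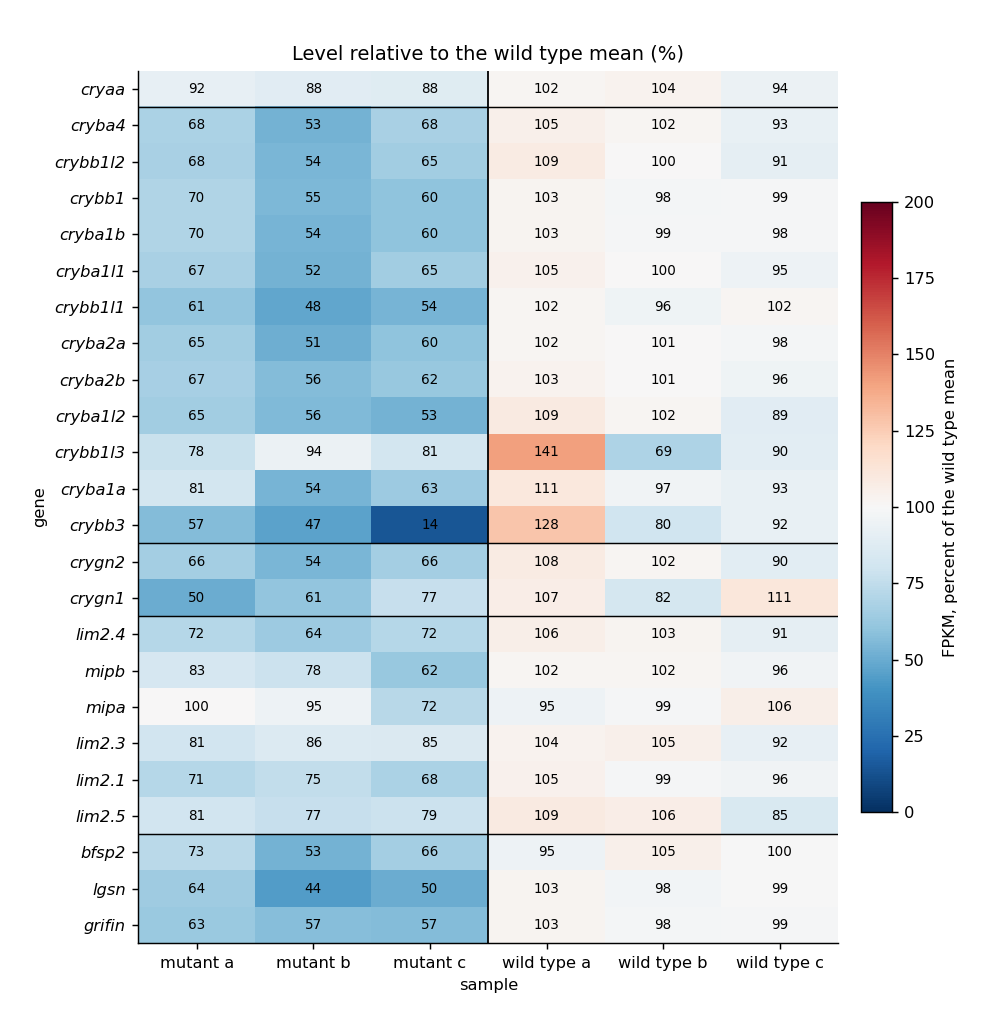
FPKM of each tested lens gene in every sample as a percentage of its wild type mean, with the 3 rhpn2 mutant samples left of the 3 wild type samples and lines between the groups of genes. In beta crystallins other than crybb1l3, mutants ran from 14.4% (crybb3 in mutant c) to 81.4% (cryba1a in mutant a), and mipa in mutants a and b and crybb1l3 in mutant b are the nearest to 100%.

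The mutant samples differed among themselves. Mutant a had the highest level of the mutants for 19 of the 24 tested genes and mutant b the lowest for 14. The median beta crystallin stood at 67.6%, 53.8% and 60.8% of its wild type mean FPKM in mutants a to c, against 105%, 99.3% and 94.0% in wild type a to c. For membrane proteins the medians were 81.1%, 77.7% and 72.0% in mutants, against 104%, 102% and 93.9% in wild type, so mutant c was the lowest there. In wild type, sample a was the highest for 19 of 24 genes and sample c the lowest for 15. Leaving out single libraries gave 16 to 20 calls of lower level, with 16 without mutant b, and 0 calls of higher level. In those fits 12.8%, 12.4% and 12.8% of all genes were called lower without mutants a, b and c, and 16.9%, 13.8% and 14.8% without wild type a, b and c.

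Proportions between the groups of genes were compared within each library. The summed level of beta crystallins was 17.4, 14.4 and 17.8 times that of the membrane proteins in mutants a to c, against 20.4, 19.8 and 20.6 times in wild type a to c. Relative to cryaa it was 202, 165 and 195 times in mutants, against 281, 264 and 278 times in wild type. In both ratios the mutant samples lay below the wild type samples. A ratio within a library does not depend on the scaling between libraries. These ratios are a description, and no test was made of them.

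Other lens and eye genes give the setting of these falls. Of 35 gamma M crystallin genes, the other large crystallin family of the fish lens, 26 were tested and all 26 were called lower, with a median log2 change of -1.07. Of these, crygmxl1 passed the count filter through wild type alone, and without it 25 of 25 were lower. The shares to set beside this list and the photoreceptor list are 16.7% lower and 16.5% higher over all genes tested. The 3 with the smallest adjusted p, crygm2d15, crygm2d11 and crygm2d4, had log2 changes of -3.25, -2.02 and -1.74 (SE 0.12, 0.14 and 0.13). Near-identical gene copies in this family may draw on each other's reads. The summed gamma M level was 1.01, 1.02 and 1.13 times the summed beta level in mutants a to c, against 1.31, 1.27 and 1.28 times in wild type a to c. Photoreceptor genes of the retina were lower by a larger median. Of 24 tested, 22 were called lower and nr2e3 higher, with a median of -1.76 (21 of 23 lower without cngb3.1, which passed the count filter through wild type alone), and rcvrn3, opn1sw1 and opn1lw2 had the smallest adjusted p (log2 changes -2.77, -2.61 and -1.92). Their summed level was 756, 400 and 503 FPKM in mutants a to c, against 2117, 1723 and 1906 FPKM in wild type a to c, so mutant a was highest and mutant b lowest there as well. Their part in the lens result was not tested.

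**Figure D4:**
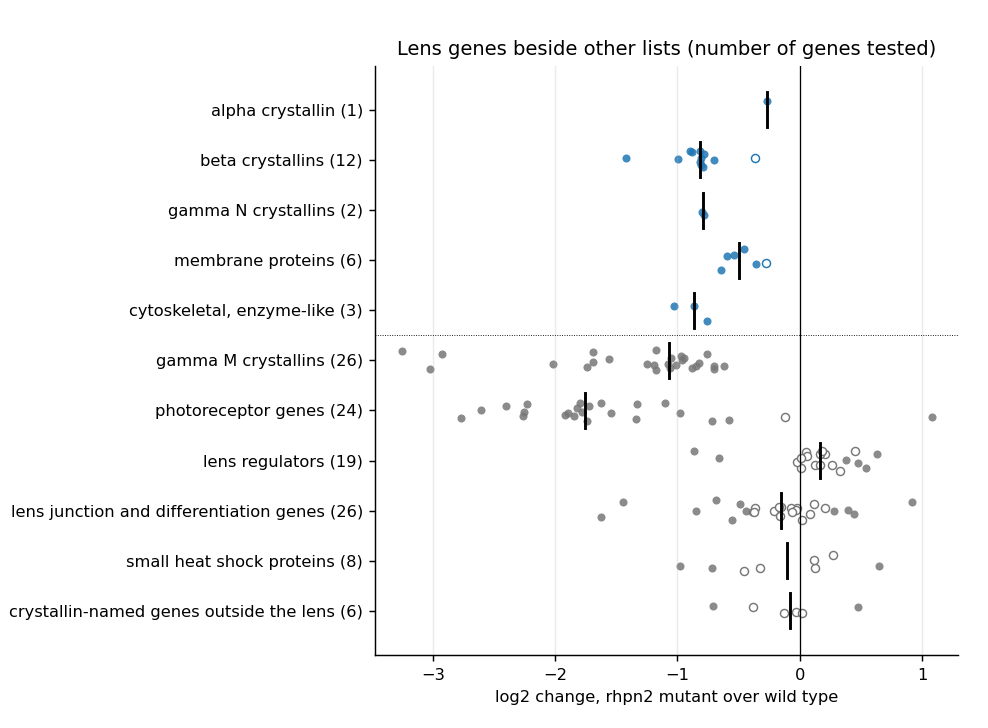
Log2 change of single genes, rhpn2 mutant over wild type, for the groups of lens genes described here (blue, above the dotted line) and other lists (grey), with filled points for called genes, open points for genes that did not pass, and black bars for medians. The gamma M crystallins and photoreceptor genes have medians of -1.07 and -1.76, and the lens regulators a median of 0.17.

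Transcription factors of the lens and early eye held calls in both directions. Of 19 tested, 2 were called lower, 4 higher and 13 did not pass, with a median log2 change of 0.17. With 19 genes, the 10.5% lower and 21.1% higher are near the shares over all genes tested, 16.7% lower and 16.5% higher. Only 1 to 2 were called higher without mutant a or c or wild type c. Of all genes called in those fits, 47.8%, 48.7% and 47.9% were higher. Library totals called 7 regulators higher, and with that scaling 65.0% of all called genes were higher. The heat shock factor hsf4, which drives crystallin and chaperone genes in fibre cells, had 5.77, 3.38 and 4.49 FPKM in mutants a to c, against 6.07, 9.12 and 7.88 FPKM in wild type a to c (log2 change -0.86, SE 0.19, adjusted p 0.00444 by edgeR). The lens and pituitary factor pitx3 had 7.53, 6.62 and 5.07 FPKM in mutants, against 8.83, 8.79 and 10.5 FPKM in wild type (log2 change -0.66, SE 0.14, adjusted p 0.00400). For both genes every mutant sample lay below every wild type sample, as it did for 17.3% of all genes tested.

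The 4 called higher were sox2, prox1a, mafa and sox1a. The progenitor factor sox2 rose by 0.48 on the log2 scale (SE 0.09, adjusted p 0.00199 by edgeR). The fibre differentiation factor prox1a had a log2 change of 0.54 (adjusted p 0.0280) with overlapping groups, and its call was lost without mutant a or c or wild type a or c (0.125, 0.0935, 0.0672 and 0.0584). The crystallin activator mafa had a log2 change of 0.63 (adjusted p 0.0235), lost as a call without mutant b or c or wild type c (0.0569, 0.0766 and 0.102), and sox1a one of 0.38 (adjusted p 0.0390), lost without mutant a or c or wild type b or c (0.151, 0.0998, 0.132 and 0.117). Those that did not pass had log2 changes of 0.46 for foxe3, a regulator of the lens epithelium, 0.33 for six3a, 0.27 for gata3, 0.21 for mafba, 0.18 for vax2, 0.17 for meis1b and tfap2a, 0.13 for six3b, 0.06 for pax6b, 0.05 for pax6a, 0.01 for sox1b and rx3 and -0.02 for eya1. Without mutant b, six3a passed (log2 change 0.54, adjusted p 0.0199). Most of these factors are also expressed outside the lens, so their lens level is not resolved in whole embryos.

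Genes of fibre junctions and fibre differentiation held calls in both directions. Of 26 tested, 8 (30.8%) were called lower, 4 (15.4%) higher and 14 did not pass, with a median of -0.16, against 16.7% lower and 16.5% higher over all genes. The share higher was near that of all genes. Without tdrd7a, which passed the count filter through wild type alone, 7 of 25 were lower. The listed deoxyribonuclease gene dnase1l1l encodes a product that degrades the nuclei of maturing fibre cells in zebrafish. The gene name table used here pairs dnase1l1l with the row that the deposited table names dnase1l3l. That row fell by 1.45 on the log2 scale (SE 0.16, adjusted p 3.55e-05 by edgeR). It had 7, 4.83 and 4.60 FPKM in mutants a to c, against 13.97, 12.85 and 14.78 FPKM in wild type a to c. The calpain gene capn3a fell by 0.55 (SE 0.09, adjusted p 0.000638). The cell cycle inhibitor cdkn1ca rose by 0.92 (SE 0.10, adjusted p 2.74e-05), with 31.8, 32.8 and 27.9 FPKM in mutants, against 14.9, 15.2 and 15.3 FPKM in wild type. Among the gap junction genes, gja3 (-0.84) and cx43 (-0.49) were called lower in every fit that left out 1 library. The calls of cx23 (-0.39) and cx44.1 (0.44) were near the threshold (adjusted p 0.0457 and 0.0349 by edgeR). That of cx23 was lost without mutant a or b or any 1 wild type sample (adjusted p 0.0518 to 0.176). That of cx44.1 was lost without mutant a or b or wild type b or c (0.0587 to 0.17). Neither changed direction without single libraries, with log2 changes of -0.493 to -0.284 for cx23 and 0.305 to 0.538 for cx44.1. Further genes called lower were birc7 (-0.68), sparc (-0.44) and tdrd7a (-1.62), the last at a mean of only 0.0933 FPKM in mutants and 0.277 FPKM in wild type. The remaining 2 called higher were epha2a (0.39), lost without mutant b or c or wild type c (0.0554 to 0.0903), and cdh2 (0.28), lost without mutant a, b or c or wild type a or c (0.0561 to 0.103).

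Relatives of the crystallins by family or by name alone held calls in both directions. Of 8 tested small heat shock protein genes, the family of the alpha crystallins, 2 were called lower and 1 higher, with a median log2 change of -0.11. With so few genes these counts are near the shares over all genes, 16.7% lower and 16.5% higher. The stress-induced hspb1, which zebrafish also express in the lens and muscle, had 12.4, 12.5 and 13.6 FPKM in mutants a to c, against 24.3, 22.7 and 23.3 FPKM in wild type a to c (log2 change -0.98, SE 0.10, adjusted p 2.73e-05 by edgeR). The muscle gene hspb3 fell by 0.72 (adjusted p 0.0254), lost as a call without mutant a or c or wild type a or c (0.0952, 0.0656, 0.0681 and 0.0611), and hspb6 rose by 0.65 (adjusted p 0.0106). Of 6 genes that bear the name or a domain of crystallins but serve outside the lens, the quinone reductase gene cryz fell (-0.71, adjusted p 0.00284), cryl1 rose (0.48, adjusted p 0.00564) and 4 did not pass, among them crym (-0.38, adjusted p 0.312). Those counts are also near the shares over all genes.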

How the data were processed

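The authors deposited 1 table with whole-number read counts and FPKM values per gene and sample, exonic gene lengths, coordinates and symbols. The deposited counts carry no normalization, and the deposited FPKM equal the count over exon length in kilobases, scaled to the library total, to within 0.005 when recomputed. The submitters' processing notes list STAR 2.7.10a, Salmon 1.9.0, fastp 0.23.2 and bcl2fastq 2.20.0.422 without saying what each did. The counting tool, strand setting, build and annotation were not given in the sources used here, and coordinates are printed as the table has them, with no build assigned. The labels' protocols name the NEBNext Ultra RNA kit for the libraries.

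Counts were tested with edgeR 4.0.16 in R 4.3.3 (filterByExpr with a minimum count of 10 and total of 15, TMM, group as the only term). SEs were taken as the log2 change over the root of F, and intervals are 1.96 SEs wide on each side. Alternatives used limma 3.58.1 on log2(FPKM + 1), log2(FPKM + 0.1) or quantile-normalized values of genes with a mean of at least 1 FPKM, and DESeq2 1.42.0. Counts were simulated for this comparison over 20032 genes, with 50 genes changed at each fold size. Recovery was 52% at 1.5-fold, 66% at 2-fold and 98% at 4-fold and 8-fold. Among the genes called were 19 of the 19832 unchanged genes, a larger share of the calls than the 0.05 aimed at. Few genes were changed in the simulation, whereas 33.2% were called in the data, so recovery in the data may differ. Libraries of 1 group differed beyond sampling noise (chi-square over its degrees of freedom 4.22 to 14.5 per pair), and each was kept as its own sample.

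The genes, lists and tests were chosen with earlier results of these data known. Sample values are given for the 3 most abundant genes of each role, those with the smallest adjusted p or the largest change, and those that did not pass. In the further lists the 3 smallest adjusted p are named, and every lens regulator. Other genes named from these lists, and the row paired with BFSP1, were chosen after their values were seen. Of the list symbols, 19 of 20 regulators, 28 of 29 junction and differentiation genes, 9 of 10 small heat shock genes, 8 of 9 crystallin-named genes and 25 of 25 photoreceptor genes matched. Counts without genes that passed the filter through 1 group alone were added after seeing the data. Promoter and protein sequences were not used here.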

Additional observations from a re-analysis of the deposited data

How the results depend on the processing

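Of the 22 lens genes called lower, 16 were called under all 14 alternatives (crybb1, crybb1l1, crybb1l2, cryba1b, cryba1l1, cryba1l2, cryba2a, cryba2b, cryba4, crygn2, mipb, lim2.1, lim2.4, lgsn, bfsp2 and grifin), while cryaa, cryba1a, crybb3, crygn1, lim2.3 and lim2.5 lost the call under 4 to 11 of them. How many of all genes called lower kept their call under all 14 was not counted. The 14 were median-of-ratios scaling, library totals, no count filter, DESeq2, the limma fits, a replicate block and each library left out. Median-of-ratios scaling nearly repeated the main fit, with 22 lens genes lower (16.9% of all genes). Only 11 of the 14 tested crybb3, since its mean lay below the 1 FPKM minimum of the limma fits, and 6 of those 11 lost its call. The count of lens genes called lower was 17 with library totals (11.9% of all genes lower) and 16 to 20 without single libraries (12.4% to 16.9%). It was 20 of 26 tested with DESeq2 (13.7%). There cryaa, crybb3 and cryba1a lost the call, so the 20 include a gene that the main fit did not test. No alternative called a lens gene higher. With quantile normalization their median log2 change was -0.541. Library totals called 7 lens regulators higher, where 65.0% of all called genes were higher, and gave eya1 a log2 change of 0.088. Quantile normalization called 4 small heat shock genes lower (16.6% of all genes) and DESeq2 called 1 (13.7%). Without single libraries, 1 to 2 small heat shock genes were lower, beside 12.4% to 16.9% of all genes. In the same fits 1 to 3 junction and differentiation genes and 1 to 4 lens regulators were higher. Of all genes called in those fits, 47.8% to 49.0% were higher. With limma eya1 was at 0.081 and 0.086 and rx3 at -0.01 and -0.155 with pseudocounts of 1 and 0.1, and rx3 at -0.049 after quantile normalization. Without single libraries, log2 changes ran from -0.576 to 0.005 for crybb1l3, -0.061 to 0.05 for eya1, -0.085 to 0.287 for pax6a, -0.136 to 0.342 for pax6b, -0.363 to 0.487 for rx3, -0.033 to 0.381 for six3b, -0.141 to 0.189 for sox1b and -0.105 to 0.553 for vax2. The cause of these shifts was not tested.

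The labels do not say whether the sample letters pair the groups. Deviations from the group mean had correlations of -0.116, -0.0486 and -0.162 for same-lettered samples. The other pairs ran from -0.00318 to 0.148. With deviations from means of only 3 samples, these values cannot settle whether the letters pair. With the letter as a replicate block, 20 lens genes (cryaa and lim2.3 lost) and 1 small heat shock gene were called lower, beside 13.4% of all genes. In that fit 2 junction and differentiation genes were higher and rx3 was at -0.09. Of all genes called there, 49.8% were higher. Depth limits crybb2, crybb3, cryabb and the gamma S genes.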

Other observations

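A further crystallin gene outside the families described above, crybgx (crystallin beta gamma X, ENSDARG00000036140), was called lower by more than any tested alpha, beta or gamma N crystallin. It had 43.5, 21.9 and 30.3 FPKM in mutants a to c, against 143, 87.5 and 126 FPKM in wild type a to c, and a log2 change of -2.01 (SE 0.22, adjusted p 3.02e-05 by edgeR). Mutant a was highest and mutant b lowest of the mutants, as for most beta crystallins. The gene lies on chromosome 7 (33951283 to 33953861, minus strand), which also carries rhpn2 (38078407 to 38122163, plus strand). What that shared chromosome contributes to its level was not tested. It was chosen after its values were seen.

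The deposited table annotates 29 genes with lens development, morphogenesis or fibre terms of the Gene Ontology, of which 18 are in none of the lists above. All 18 were tested, and 6 (33.3%) were called higher and 1 (5.56%) lower, against 16.5% higher and 16.7% lower over all genes tested. Those higher were sox11a and sox11b (log2 changes 1.02 and 0.83), transcription factors of progenitor cells, the laminin gene lama1 (0.96), mab21l2 (0.76), a gene of eye development, the DNA methylation cofactor uhrf1 (0.54) and sufu (0.37), an inhibitor of hedgehog signalling. The 1 lower was the growth factor gene fgf19, which passed the count filter through wild type alone (-1.25, adjusted p 0.0235 by edgeR), at 0.420 FPKM in mutants and 0.937 FPKM in wild type on average, a call lost without mutant b or c or wild type b or c (adjusted p 0.0916, 0.0553, 0.0626 and 0.0543). Most of these genes are active in many tissues of the embryo. This set was looked up after the data were seen.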
